A study of Mus musculus with 23 samples.

Results

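3 neighbouring bins of the mouse Shh region, at the Lmbr1 side of its large contact domain, were followed with all the contacts that start or end in them. They are bin65|mm9|chr5:29682087-29703087, bin66|mm9|chr5:29703087-29724087 and bin67|mm9|chr5:29724087-29745087, chosen by position out of the 80 bins of 21 kb that cover the region in the mm9 build. 234 of the 3160 pairs of different bins have an end in them, and 222 of these entered the tests below. Bins are numbered from 0, and left and right mean towards lower and higher coordinates.

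Chromatin folds into topologically associating domains, stretches whose sequences meet each other more often than they meet sequences outside. At many domain boundaries the protein CTCF, bound in a given orientation, halts the cohesin ring that extrudes a chromatin loop, so that contacts cross the boundary less often and a halted anchor can show as a stripe of contacts to one side. The domain at this locus holds Shh, which encodes a signalling protein that patterns the limb and the neural tube. It also holds the limb enhancer ZRS, which lies far from Shh within an intron of Lmbr1. In the RefSeq gene order Shh is followed by Rnf32, Lmbr1, Nom1 and Mnx1, and Lmbr1 marks the far end of the domain from Shh.

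The Lmbr1 promoter is shown because the gene names this end of the domain and is read from the strand opposite to the coordinate order. The sequence below holds 250 bases from RefSeq (GRCm38.p6, chromosome 5, minus strand), 5′ to 3′, with the GC box (GGGCGG on either strand, the site known for Sp1 family factors) in capitals.
Lmbr1 promoter: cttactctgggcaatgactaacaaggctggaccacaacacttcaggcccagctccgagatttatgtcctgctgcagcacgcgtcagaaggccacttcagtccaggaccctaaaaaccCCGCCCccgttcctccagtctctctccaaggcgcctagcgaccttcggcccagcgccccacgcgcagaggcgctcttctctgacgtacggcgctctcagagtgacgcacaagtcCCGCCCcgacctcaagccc
It is 62% G or C and holds 2 GC boxes, a motif present in 32.7% of 32851 RefSeq promoters searched the same way. It holds no HindIII site (AAGCTT, in 6.22% of promoters), the site cut in this assay. The window was not placed inside one of the 3 bins, because its coordinates belong to another build.

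The study used 5C, in which nuclei are fixed with formaldehyde, cut with HindIII and ligated, and primers at the cut sites of 1 region count the ligated pairs. Its 23 samples give 21 libraries. The groups are E14 mouse embryonic stem cells (ESC) with deletions named DCTCF1, DCTCF2, DCTCF3, DCTCF4, DCTCF5 and D35, and wild type E14 ESC. The E11.5 embryos of the CD1 strain gave whole D700 embryos, posterior limb buds, anterior limb buds and embryonic bodies. Each group has 2 libraries, called biological replicates in the titles, except the bodies with 1. The 5 DCTCF names refer to CTCF in the sample titles and file labels, D35 is called a deletion of 35 kb in the sample descriptions, and the deleted sites have no stated position in the sources used here. No further genotype of the embryos or of the ESC groups is given. The D700 matrices lack bins 27 to 58, a stretch of 672 kb to the left of the 3 bins, so bins 65 to 67 themselves remain.

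The 3 bins rest on unequal evidence. Bin 65 draws on 1 HindIII fragment, Shh_453 at chr5:29677935-29691941, bin 66 on 7 fragments, and bin 67 on 2, against a median of 4 per bin over 343 fragments in 80 bins. Bin 64, between the domain and bin 65, holds no fragment midpoint and has no value. In 21 of 21 libraries bin 65 had the same value with bin 66 as with bin 67, and bins 66 and 67 shared 49.3% of their values over common partners, so neighbouring values are not independent measurements. The contact values of a library summed to between 62111.912 and 106302.61. They are not counts and the sources used here give no normalization for them, so their counting error is unknown. Values below are relative contacts, the deposited value divided by the mean of that library's pairs at least 2 bins apart, so 1 is the average pair. For D700 that mean covers only the bins its matrices hold, so its values are on another scale than those of the full map. On the D700 bins the pair of bins 65 and 67 had 10.3 in anterior limb bud replicate 1, against 12.9 on the full map. Only in the D700 test below are all libraries scaled over the same bins. In both D35 libraries bin 65 was at 0 with 59 bins, so bin 65 was taken as deleted there, left without a value in the fit, and D35 is described apart.

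In wild type ESC the 3 bins marked the place where the side of stronger contact changed. The side balance of a bin is log2 of its mean contact to the left over its mean contact to the right, over separations of 42 to 252 kb. The bins just inside the domain leaned to the left, where bin 61 had a mean balance of 0.86, bin 62 of 0.15 and bin 63 of 0.27 (n = 2). Bin 65 then leaned to the right with balances of -0.54 and -0.72, bin 66 with -1.19 and -1.03, and bin 67 with -0.17 and -0.33. On this measure the turn from left to right fell between bins 63 and 65, which fits the label of a boundary. The right side of bin 65 includes its pair with bin 67, at 10.3 and 13.8, the value it also has with the adjacent bin 66. Its right mean at 42 to 105 kb, that pair included, was 4.42 and 5.75. No balance of bin 65 was formed without that pair, so whether the turn falls before or after bin 65 was not tested. Bin 66 stood 52nd of 53 bins in order of balance, with bin 24 at the other end of the domain alone below it, at -1.28.

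The same turn was present in the embryo. Bin 61 averaged 0.59 in posterior limb buds and 0.99 in anterior limb buds (n = 2 each), and stood at 0.77 in the body. Bin 66 had balances of -1.43 and -2.42 in posterior limb buds, against -1.60 and -2.17 in anterior limb buds, and -2.32 in the body, the lowest of 53 bins in each of these groups. Bin 65 had -0.71 and -0.55 in posterior limb buds, -0.64 and -0.46 in anterior limb buds and -0.37 in the body. Bin 67 had -0.47 and -0.48 in posterior limb buds, -0.35 and -0.38 in anterior limb buds and -0.51 in the body. All 3 bins and their left neighbours are kept in 17 libraries, all but D35 and D700. In these the right side was stronger than the left in 17 for bin 65, 17 for bin 66 and 14 for bin 67. The balances of bins 65 and 67 include the pair of these bins with each other.

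**Figure D1:**
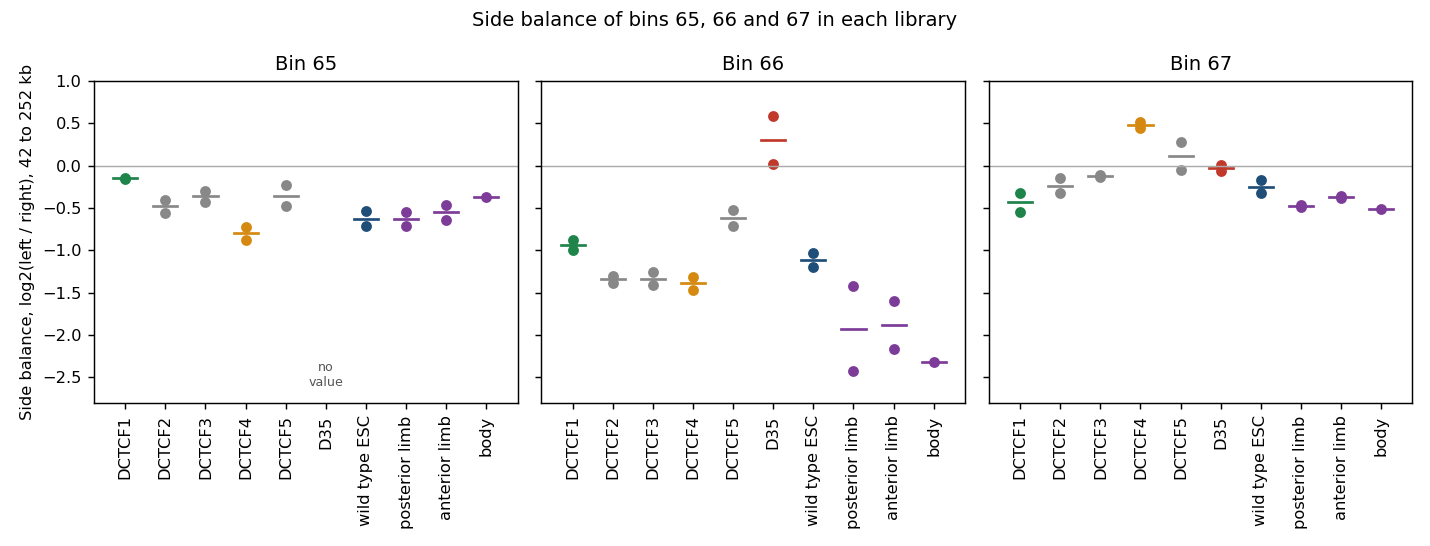
Side balance (log2 of left over right contact at 42 to 252 kb) of bins 65, 66 and 67, with 1 point per library and the groups along the horizontal axis. Bin 66 lies below 0 in every group but D35, where its libraries stand at 0.02 and 0.59, and bin 67 lies above 0 in both DCTCF4 libraries. At bin 67 the D35 points are formed without bin 65, unlike those of the other groups. Without bin 65 wild type ESC had -1.02 and -1.60 there.

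The stripe of bin 66 ran to the right. In wild type ESC its relative contact was 5.44 and 4.91 at 42 to 105 kb on the right, against 2.03 and 2.42 at the same distance on the left. At 126 to 252 kb it was 1.74 and 1.90 on the right, against 1.06 and 1.06 on the left. Contact to the left then averaged 0.774 at 273 to 504 kb, 0.596 at 525 to 924 kb and 0.810 at 945 kb or more (n = 2). The last value was higher than the one before it, so the left stripe of bin 66 did not fall steadily with distance. This was not particular to bin 66. Over the same 2 classes bin 67 averaged 0.554 and then 0.787, and bin 65 averaged 0.793 and then 0.792. The map ends 12 bins to the right of bin 67, so no right stripe beyond 252 kb was formed, although single pairs of bins 65 and 66 reach further.

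Bins 65 and 67 were more even near their own position. Bin 65 had 4.42 and 5.75 at 42 to 105 kb on the right, against 2.97 and 3.64 on the left in wild type ESC. The right mean of bin 65 includes its high pair with bin 67, given below. Bin 67 had 3.05 and 3.36 on the right at this distance, against 4.28 and 5.41 on the left. That left mean covers 3 partners, since bin 64 has no value, and it was high through bin 65 alone. Bin 65 had 10.3 and 13.8 with bin 67, against 1.21 and 1.31 for bin 62 and 1.36 and 1.16 for bin 63. Without bin 65 the near left side of bin 67 was thus below its right side. At 126 to 252 kb bin 67 leaned clearly to the right, with 1.87 and 2.39, against 1.09 and 0.805 on the left.

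**Figure D2:**
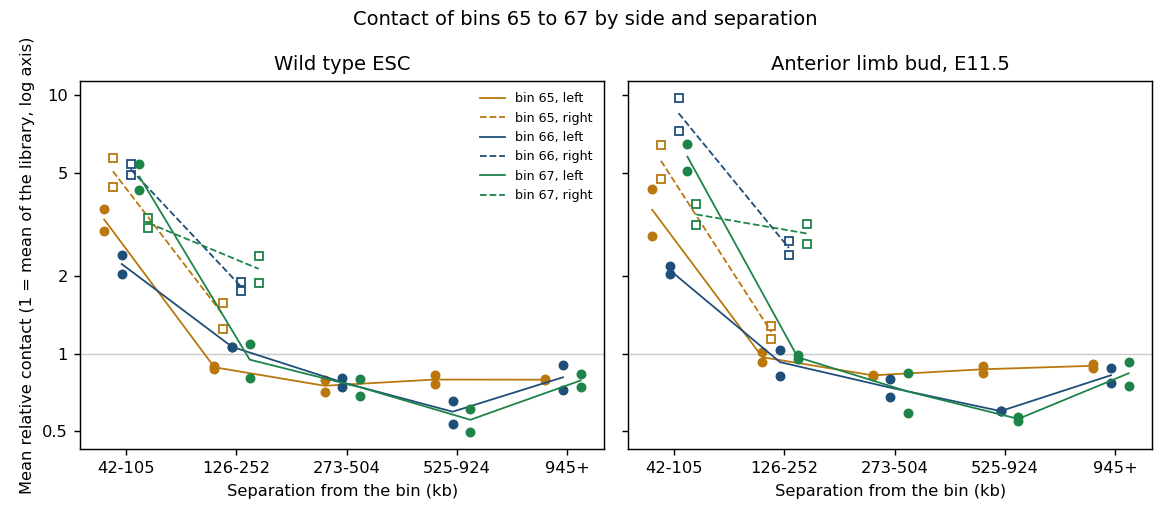
Relative contact of bins 65, 66 and 67 (log axis) by separation class in kb in wild type ESC and in anterior limb buds. Left and right of each bin are drawn apart, with points for libraries and lines for group means. The right side of bin 66 stands above its left side at 42 to 252 kb in each group shown.

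Contacts of the 3 bins with bins 21 and 22, at the far end of the Shh domain, were near or above the average pair where the partner was bin 21 and varied more where it was bin 22. In wild type ESC bin 21 with bin 65 had 1.52 and 2.12, bin 21 with bin 66 had 1.81 and 1.63, and bin 21 with bin 67 had 0.917 and 1.14. In the limb, bin 21 with bin 66 had 1.94 and 1.89 in posterior buds, against 1.85 and 1.80 in anterior buds, and 1.48 in the body. These bins lie 945 kb apart, and the mean of bin 66 to the left at 945 kb or more was 0.869 ± 0.065 in posterior and 0.824 ± 0.076 in anterior limb buds (SD, n = 2 each) and 0.935 in the body. Bin 22 had 0.727 and 0.510 with bin 65, 1.21 and 0.949 with bin 66 and 1.69 and 0.852 with bin 67 in wild type ESC. Over the 10 DCTCF libraries bin 21 had 0.860 to 1.94 with bin 66, and bin 22 had 0.608 to 1.22. In D700 embryos, where these bins and the boundary lie on either side of the deletion, bin 21 had 1.43 and 1.55 with bin 66 and bin 22 had 0.689 and 0.878. The missing 672 kb lies between them, so in the edited chromosome they are nearer to each other than the 945 kb of the map. These D700 values are also scaled over fewer bins than those of the other groups.

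A single contact weighed heavily on the right side of bin 66. This pair, of bins 66 and 70 at 84 kb, was picked out for D35 by the naming rule and is followed in the other groups because of its values. It had 9.27 and 6.29 in wild type ESC and 4.32 to 10.9 over the 10 DCTCF libraries. In the embryo it had 13.9 and 54.3 in posterior limb buds, 16.3 and 24.9 in anterior limb buds, and 65.8 in the body. D700 embryos had 63.2 and 11.2, scaled over their own fewer bins and so not directly comparable. Replicates of 1 tissue therefore differed several-fold at this pair. Bin 67 with the same bin 70 varied far less, from 1.81 in D700 to 5.30 in posterior limb buds over the 21 libraries.

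The fragment counts of the limb buds traced this contact to 1 pair of HindIII fragments, Shh_458 at chr5:29703904-29705290 in bin 66 and Shh_491 at chr5:29806189-29807449 in bin 70. It held 4009 and 34092 counts in posterior limb buds, or 0.535% and 2.43% of the library, against 5068 and 10215 counts in anterior limb buds, or 0.496% and 0.738%. Posterior replicate 2 stood apart from the other 3 libraries. All contacts of bin 66 to the right held 18390 and 56456 counts in posterior limb buds, against 23831 and 35497 in anterior limb buds. Without that fragment pair they held 14381 and 22364, against 18763 and 25282. PCR products without molecular identifiers are not independent molecules, so such counts show the weight of a contact and not its precision.

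Without the pair of bins 66 and 70 bin 66 still leaned to the right outside D35. Its balance was then -0.87 and -0.86 in wild type ESC. It averaged -0.88 ± 0.14 in posterior limb buds and -1.30 ± 0.28 in anterior limb buds (SD, n = 2 each), and was -0.74 in the body. On this measure anterior limb buds leaned further to the right than wild type ESC, posterior limb buds averaged close to it with libraries on both sides, and the body leaned less.

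**Figure D3:**
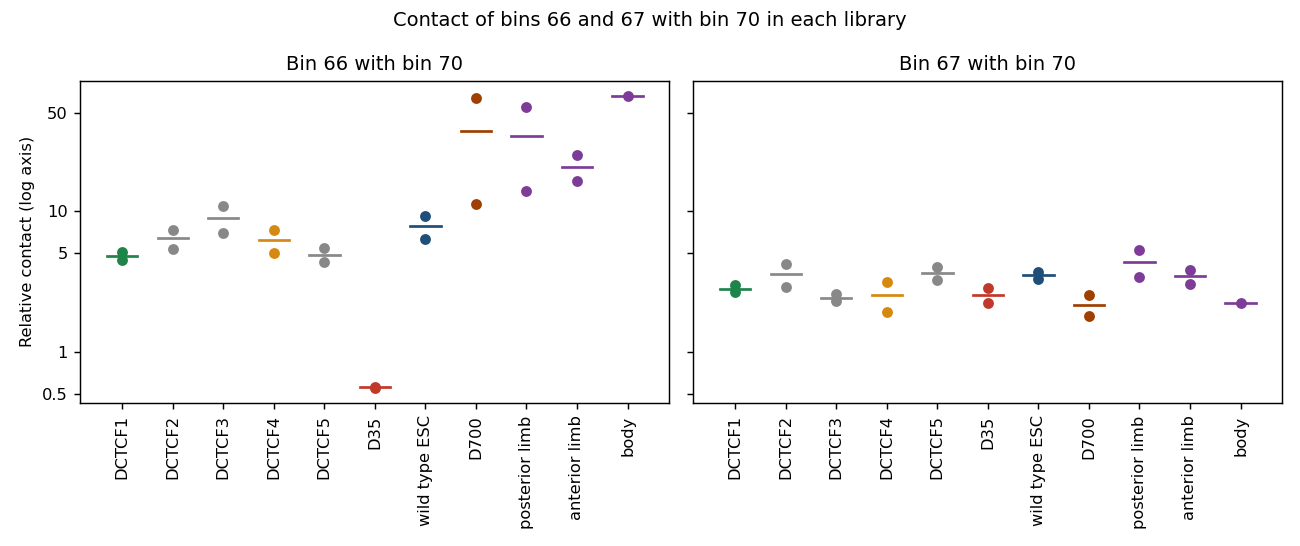
Relative contact (log axis) of bins 66 and 67 with bin 70, with 1 point per library and the groups along the horizontal axis. The pair of bins 66 and 70 spans 0.554 in D35 to 65.8 in the body, and the pair of bins 67 and 70 stays between 1.81 and 5.30. D700 is scaled over its own fewer bins.

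The tests asked whether each deletion changed the contacts of the boundary bins. Every ESC line was set against the same 2 wild type libraries, so the comparisons are not independent of each other. 1 limma fit of all ESC libraries served the DCTCF lines, and a second fit of the same libraries, scaled without bin 65, served D35. 3 kinds of feature were tested over the whole map with Benjamini-Hochberg adjustment and a threshold of 0.05, namely stripes (the mean of a bin on 1 side in 1 separation class), balances and single pairs. The log2 changes of stripes and pairs are on the scale of log2(relative contact + pseudocount), with a pseudocount near 0.3, and understate the change of low values. The share of all features of the map that passed is given as the background beside each first count.

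D35 had the largest changes of these bins. In it bin 66 lost most of its right stripe, and both bins 66 and 67 became more even between their sides. 6 of 13 stripes of bins 66 and 67 passed, 2 higher and 4 lower, against 5% of 560 stripes over the map. Both balances passed, both higher, against 5.77% of 52 bins. 16 of 147 pairs passed, all lower, against 1.12% of 2778 pairs. Wild type values in this comparison are scaled without bin 65 and so differ slightly from those above.

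The right side of bin 66 fell at both distances. At 42 to 105 kb its relative contact was 2.27 and 1.74 in D35, against 5.47 and 4.95 in wild type ESC, a log2 change of -1.28 ± 0.13 (SE, limma adjusted p = 3.12e-06). At 126 to 252 kb it was 0.762 and 0.512 in D35, against 1.75 and 1.91 in wild type ESC, a change of -1.23 ± 0.12 (limma adjusted p = 3.12e-06). The groups did not overlap in either class. The deposited ratio of observed over expected was likewise lower, with 0.771 and 0.687 in D35 and 2.09 and 1.75 in wild type ESC in the nearer class. Without the pair of bins 66 and 70 the nearer class changed by -0.76 (limma adjusted p = 0.00308), a smaller fall that still passed.

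The left side of bin 66 did not fall alike. At 42 to 105 kb it had 2.61 and 3.09 in D35, against 2.04 and 2.44 in wild type ESC (log2 change 0.32, limma adjusted p = 0.163), with both D35 libraries above both wild type ones. At 126 to 252 kb it fell to 0.783 and 0.740 in D35, against 1.07 and 1.07 in wild type ESC, by 0.38 on the log2 scale (limma adjusted p = 0.0138). The balance of bin 66 was 0.02 and 0.59 in D35, against -1.19 and -1.03 in wild type ESC, a difference of 1.42 ± 0.17 (SE, limma adjusted p = 4.69e-05). The mean of the D35 libraries placed bin 66 16th of 52 bins in the order of balance, with bin 63 averaging 0.46 in D35, but replicate 1 was close to even and only replicate 2 leaned clearly to the left. Without the pair of bins 66 and 70 the balance was -0.058 and 0.53 in D35, against -0.87 and -0.86 in wild type ESC, a difference of 1.10 (limma adjusted p = 0.000232).

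Bin 67 gained contact to the left and lost contact to the right in D35. On the left at 126 to 252 kb it had 1.67 and 1.63 in D35, against 1.09 and 0.811 in wild type ESC, a log2 change of 0.66 ± 0.13 (SE, limma adjusted p = 0.00513). Without D35 replicate 1, D35 replicate 2 or wild type replicate 2 the adjusted p was 0.0586, 0.0517 and 0.0851, so this call needed each of these libraries. Without any 1 of them 2 stripes passed, the right classes of bin 66, whose limma adjusted p ran from 7.2e-06 to 0.00036. On the left at 273 to 504 kb it had 0.954 and 1.06 in D35, against 0.802 and 0.689 in wild type ESC (0.33, limma adjusted p = 0.0232). On the right at 126 to 252 kb it fell to 1.45 and 1.44 in D35, against 1.88 and 2.40 in wild type ESC (log2 change -0.49, limma adjusted p = 0.0393). The nearer right class, with 2.54 and 2.15 in D35 and 3.07 and 3.38 in wild type ESC, did not pass (log2 change -0.42, limma adjusted p = 0.0639). Its balance, with bin 65 left out of both groups, was -0.06 and 0.01 in D35 and averaged -1.31 ± 0.41 in wild type ESC (SD, n = 2), a difference of 1.29 ± 0.19 (SE, limma adjusted p = 0.000208).

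Among single pairs, 11 of the 12 tested contacts of bin 66 to the right fell, with a median log2 change of -1.29. The exception was the nearest, bin 66 with bin 68, which had 5.82 and 3.60 in D35, against 6.00 and 6.83 in wild type ESC (limma adjusted p = 0.469). The pair of bins 66 and 70 had 0.565 and 0.554 in D35, against 9.32 and 6.34 in wild type ESC, a log2 change of -3.27 ± 0.26 (SE, limma adjusted p = 2.2e-05). Bin 66 with bin 74 had 0.134 and 0.133 in D35, against 0.989 and 1.73 in wild type ESC (-1.98, limma adjusted p = 0.000438). On the left 4 of 62 pairs of bin 66 fell, those with bins 4, 22, 54 and 57.

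The contact of bin 66 with bin 22 at the far end of the domain was among them. It had 0.156 and 0.131 in D35, against 1.22 and 0.956 in wild type ESC, a log2 change of -1.71 (limma adjusted p = 2.32e-05). Its neighbour bin 21 had 1.03 and 1.08 with bin 66 in D35, against 1.81 and 1.63 in wild type ESC, and did not pass. Bin 67 with bin 22 had 1.22 and 1.46 in D35, against 1.70 and 0.859 in wild type ESC, so the groups overlapped. For bin 67, 1 of 11 pairs to the right fell, with bin 75, which had 0.948 and 0.943 in D35 and 1.85 and 2.07 in wild type ESC. 0 of its 62 left pairs passed in limma, although the stripe means of the left side did. 51 of the 147 pairs had an unadjusted p under 0.05, against 260 of 2778 over the map. The neighbouring bins 66 and 67, too close to be tested, had 0.219 and 0.164 in D35, against 8.18 and 22.8 in wild type ESC.

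Separations in D35 were counted on the undeleted map, so left partners of bins 66 and 67 lie nearer in the edited chromosome than their class says. Loss of part of the fragments of bin 66 and less contact of each remaining fragment cannot be told apart in the binned values. D35 also has a run year that no other group shares, so line and run year cannot be told apart.

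**Figure D4:**
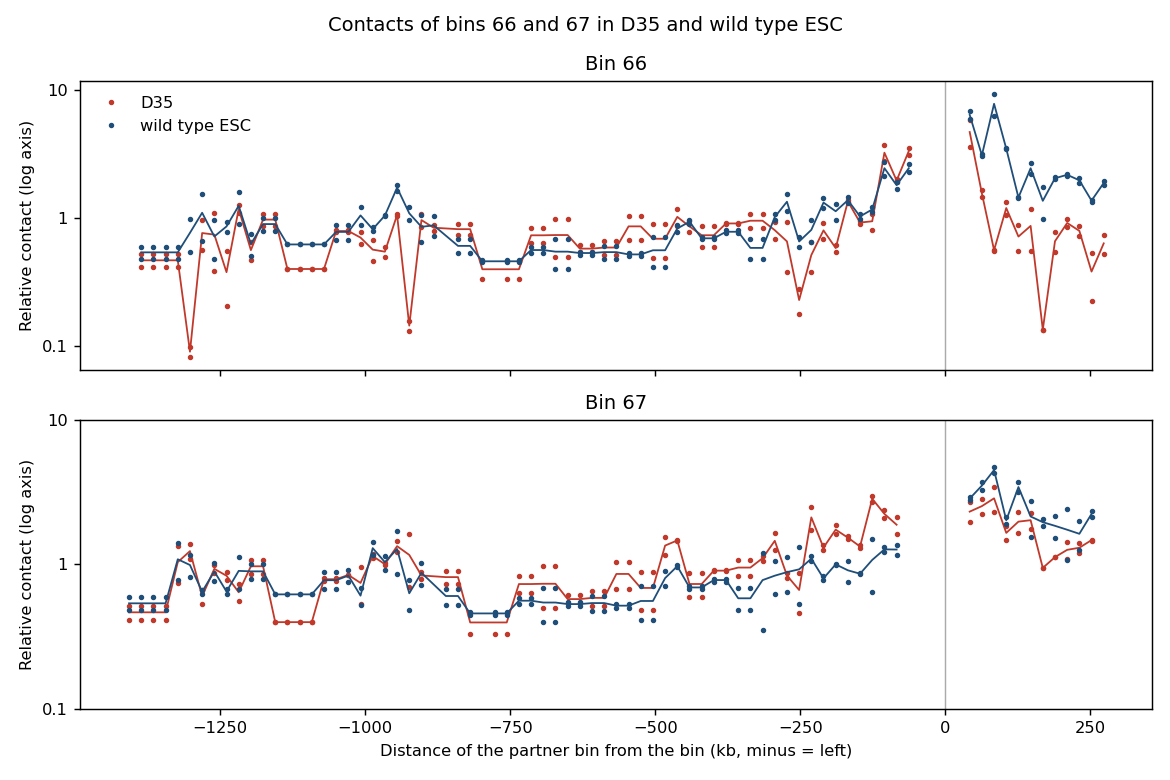
Relative contact (log axis) of bins 66 and 67 with each partner bin, against the distance of the partner in kb, for D35 and wild type ESC, with points for libraries and lines for means. To the right of bin 66 both D35 libraries lie below both wild type libraries at each of the 12 tested partners. The share of all pairs with such a separation was not counted.

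In DCTCF4 the contacts among the 3 bins themselves were stronger. 4 of 21 stripes passed, 3 higher and 1 lower, against 7.85% of 573 stripes over the map. 1 of 3 balances passed, that of bin 67, against 1.89% of 53 bins. 2 of 222 pairs passed, 1 higher and 1 lower, against 0.631% of 2853 pairs.

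The pair of bins 65 and 67 rose in DCTCF4. It had 27.6 and 26.7 in DCTCF4, against 10.3 and 13.8 in wild type ESC, a log2 change of 1.17 ± 0.20 (SE, limma adjusted p = 0.0213), and bins 65 and 66 have that same value. The neighbouring bins 66 and 67, which were not tested, had 50.5 and 43.6 in DCTCF4, against 8.18 and 22.8 in wild type ESC. Both DCTCF4 libraries were above both wild type libraries for each of these. Bins 4 and 67 fell, with 0.308 and 0 in DCTCF4, against 1.39 and 0.768 in wild type ESC (log2 change -1.75, limma adjusted p = 0.0305). Without DCTCF4 replicate 2 the limma adjusted p of these pairs was 0.0902 for bins 65 and 67 and 0.149 for bins 4 and 67. Without wild type replicate 1 it was 0.166 and 0.281 for the same pairs, so neither call stood without these libraries.

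The near stripes that hold the pair of bins 65 and 67 rose with it. The left side of bin 67 at 42 to 105 kb had 10.0 and 9.70 in DCTCF4, against 4.28 and 5.41 in wild type ESC, a log2 change of 1.00 ± 0.14 (SE, limma adjusted p = 0.000357). The right side of bin 65 at this distance had 9.34 and 8.82 in DCTCF4, against 4.42 and 5.75 in wild type ESC (0.82 ± 0.13, limma adjusted p = 0.000927). To the left at 126 to 252 kb bin 65 had 1.09 and 1.74, against 0.896 and 0.874 in wild type ESC (0.52, limma adjusted p = 0.0318), and was lost without DCTCF4 replicate 2 (adjusted p = 0.313), wild type replicate 1 (0.147) or wild type replicate 2 (0.121). At that distance the left side of bin 66 fell to 0.830 and 0.816, against 1.06 and 1.06 in wild type ESC (log2 change -0.29, limma adjusted p = 0.0471).

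The balance of bin 67 was 0.44 and 0.52 in DCTCF4, against -0.17 and -0.33 in wild type ESC, a difference of 0.73 ± 0.11 (SE, limma adjusted p = 0.000347). With bin 65 left out of every library this difference was -0.067 (limma adjusted p = 0.918), so it rested on the 1 fragment behind bin 65. Bin 66 had a balance of -1.31 and -1.47 in DCTCF4 and did not pass against wild type ESC (-0.28, limma adjusted p = 0.324). Both DCTCF4 libraries have the run year of wild type replicate 2. With run year as a covariate the pair of bins 65 and 67 changed by 1.07 (limma adjusted p = 0.142) and the left side of bin 67 by 0.94 (limma adjusted p = 0.00527).

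In DCTCF1 the same contact was lower than in wild type ESC, by less. 1 of 21 stripes passed, lower, against 1.92% of the stripes of the map. 1 of 3 balances passed, higher, against 3.77% of bins. 0 of 222 pairs passed in limma, against 0% of all pairs. An unadjusted p under 0.05 was reached by 15 of them, against 232 of 2853 pairs over the map. The left side of bin 67 at 42 to 105 kb fell to 3.03 and 2.79 in DCTCF1, against 4.28 and 5.41 in wild type ESC (log2 change -0.68 ± 0.14 SE, limma adjusted p = 0.0186). The balance of bin 65 was -0.16 and -0.14 in DCTCF1, against -0.54 and -0.72 in wild type ESC, a difference of 0.48 ± 0.11 (SE, limma adjusted p = 0.0205).

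Bins 65 and 67 had 6.45 and 6.45 with each other in DCTCF1, against 10.3 and 13.8 in wild type ESC. This pair did not pass (log2 change -0.86, limma adjusted p = 0.222). Both features that passed in DCTCF1 include this pair, so they are not separate evidence from it. Neither feature was formed without this pair alone. The smallest adjusted p among pairs was that of bins 21 and 66, with 0.860 and 0.963 in DCTCF1, against 1.81 and 1.63 in wild type ESC (-0.75, limma adjusted p = 0.206). Each call of DCTCF1 was lost when either DCTCF1 library or the second wild type library was left out alone. Its bin 65 balance then changed by 0.49, 0.47 and 0.39, with limma adjusted p of 0.135, 0.121 and 0.162. With bin 65 left out of every library neither feature could be formed, so that setting does not test these calls.

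**Figure D5:**
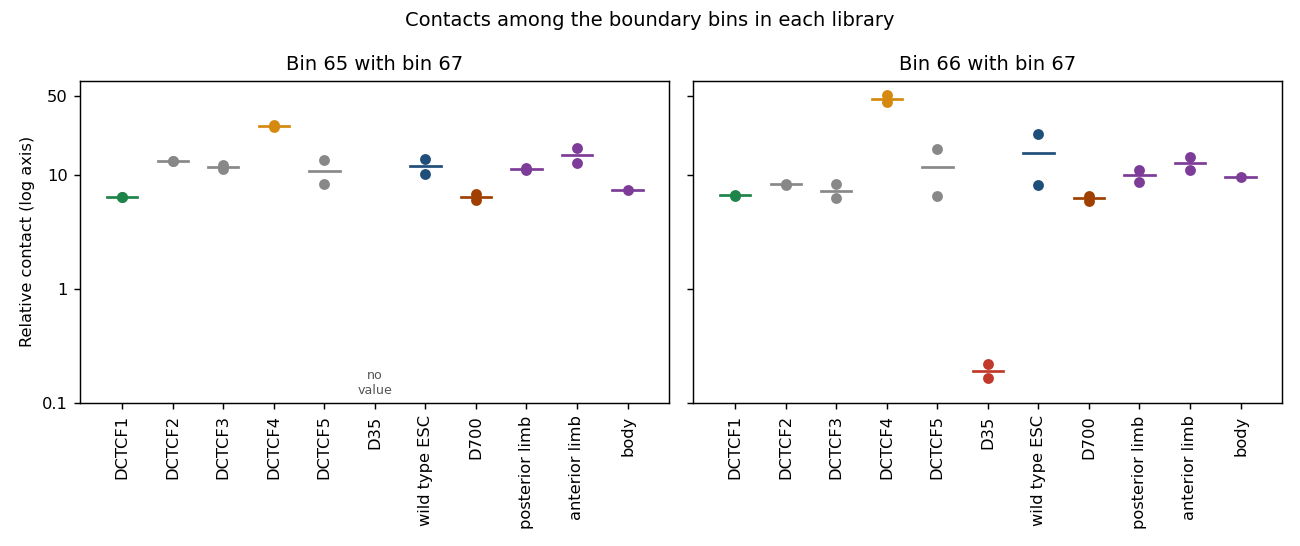
Relative contact (log axis) among bins 65, 66 and 67, with 1 point per library and the groups along the horizontal axis. DCTCF4 stands above wild type ESC in both pairs, at 26.7 and 27.6 for bins 65 and 67, and DCTCF1 lies below it there, at 6.45. D700 is scaled over its own fewer bins.

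No feature of the 3 bins passed in DCTCF2, DCTCF3 or DCTCF5. In DCTCF2 0 of 21 stripes passed in limma, against 0.524% over the map, with 6 at an unadjusted p under 0.05. 0 of 3 balances passed, against 0%, with 0 at an unadjusted p under 0.05. Of the pairs 0 of 222 passed, against 0.0351%, with 33 at an unadjusted p under 0.05. Over the map 101 of 573 stripes, 7 of 53 balances and 271 of 2853 pairs had such an unadjusted p. Closest came the left side of bin 67 at 273 to 504 kb, with 0.537 and 0.532 in DCTCF2 and 0.798 and 0.683 in wild type ESC (-0.33, limma adjusted p = 0.0547). The closest pair was bins 67 and 75, with 1.04 and 0.848 in DCTCF2 and 1.84 and 2.06 in wild type ESC (-0.88, limma adjusted p = 0.293). Bin 66 had a balance of -1.38 and -1.30 in DCTCF2, below both wild type libraries without passing (-0.23, limma adjusted p = 0.569).

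In DCTCF3 0 of 21 stripes passed in limma, against 0.175% over the map, with 4 at an unadjusted p under 0.05. 0 of 3 balances passed, against 0%, with 1 at an unadjusted p under 0.05. Of the pairs 0 of 222 passed, against 0%, with 29 at an unadjusted p under 0.05. Over the map 51 of 573 stripes, 3 of 53 balances and 198 of 2853 pairs had such an unadjusted p. The closest stripe was the left side of bin 67 at 945 kb or more, with 0.608 and 0.579 in DCTCF3 and 0.832 and 0.741 in wild type ESC (-0.29, limma adjusted p = 0.165). The closest pair was bins 18 and 67, with 0.240 and 0.316 in DCTCF3 and 0.751 and 0.912 in wild type ESC (-1.01, limma adjusted p = 0.102). Bin 65 had balances of -0.30 and -0.43 in DCTCF3, bin 66 of -1.25 and -1.42, and bin 67 of -0.12 and -0.14. Both DCTCF3 libraries were above both wild type libraries for bins 65 and 67 and below them for bin 66. The differences were 0.27 for bin 65 (limma adjusted p = 0.607), 0.12 for bin 67 (0.785) and -0.22 for bin 66 (0.775). How many bins of the map were separated likewise was not counted.

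DCTCF5 had the smallest lean of bin 66 outside D35, without passing. 0 of 21 stripes passed in limma, against 0% over the map, with 9 at an unadjusted p under 0.05. 0 of 3 balances passed, against 0%, with 3 at an unadjusted p under 0.05. Of the pairs 0 of 222 passed, against 0%, with 34 at an unadjusted p under 0.05. Over the map 69 of 573 stripes, 12 of 53 balances and 145 of 2853 pairs had such an unadjusted p. Bin 66 had a balance of -0.53 and -0.71 in DCTCF5, against -1.19 and -1.03 in wild type ESC (0.49, limma adjusted p = 0.125). That of bin 67 was 0.28 and -0.05, against -0.17 and -0.33 in wild type ESC (0.36, limma adjusted p = 0.0705), and that of bin 65 was -0.23 and -0.48, against -0.54 and -0.72 (0.27, limma adjusted p = 0.156). In each of the 3 bins both DCTCF5 libraries were above both wild type libraries, a separation whose share over all bins was not counted.

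Single features of DCTCF5 lay on the same sides. The left side of bin 67 at 126 to 252 kb had 1.43 and 1.54 in DCTCF5, against 1.09 and 0.805 in wild type ESC (0.54, limma adjusted p = 0.127). With run year as a covariate it changed by 0.69 and passed (limma adjusted p = 0.0447). The right side of bin 66 at 42 to 105 kb had 3.86 and 3.71 in DCTCF5, against 5.44 and 4.91 in wild type ESC (-0.42, limma adjusted p = 0.168). The pair with the smallest p, bins 21 and 67, had 2.26 and 1.93 in DCTCF5, against 0.917 and 1.14 in wild type ESC (0.87, limma adjusted p = 0.651).

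Posterior and anterior limb buds differ in that Shh is known to be active in the posterior margin of the bud and silent in the anterior part. The boundary bins differed in no feature that passed. 0 of 21 stripes passed in limma, against 0.349% over the map, with 4 at an unadjusted p under 0.05. 0 of 3 balances passed, against 1.89%, with 0 at an unadjusted p under 0.05. Of the pairs 0 of 222 passed, against 0%, with 28 at an unadjusted p under 0.05. Over the map 111 of 573 stripes, 5 of 53 balances and 226 of 2853 pairs had such an unadjusted p. The left side of bin 65 at 945 kb or more had the smallest p, with 0.796 and 0.640 in posterior limb buds and 0.912 and 0.882 in anterior limb buds (-0.23, limma adjusted p = 0.229).

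The raw fragment counts of the same libraries had totals of 749738 and 1400833 in posterior limb buds and 1022801 and 1383595 in anterior limb buds. They gave 0 of 214 pairs in edgeR, against 0% of 2885 pairs. An unadjusted p under 0.05 was reached by 8 of the 214 pairs, against 93 of the 2885 over the map. The pair of bins 67 and 77 had the smallest p in both data types. Its relative contact was 1.61 and 1.35 in posterior limb buds, against 3.29 and 3.79 in anterior limb buds (-1.10, limma adjusted p = 0.510). Its counts were 164 and 206 in posterior limb buds, against 399 and 553 in anterior limb buds (-1.21, edgeR adjusted p = 0.98). DESeq2 called this 1 pair (adjusted p = 0.00956). Without posterior replicate 1, some pairs of the 3 bins passed in edgeR and in limma, bins 67 and 77 among them. Without posterior replicate 2 fewer did. Both fits have a posterior group of 1 library, assumed to vary like the anterior ones. The share of all pairs that passed in them is not given here, so these calls are not read as particular to the 3 bins.

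D700 embryos, which lack bins 27 to 58 of the domain, were set against the 5 unedited E11.5 libraries. On bins present in both, 0 of 15 stripes passed in limma, against 1.74% over the map, with 2 at an unadjusted p under 0.05. The 1 balance that could be formed did not pass, against 0% of 8, and had no unadjusted p under 0.05 in limma. 0 of 129 pairs passed, against 0.403%, with 11 at an unadjusted p under 0.05. Over the map 31 of 230 stripes, 0 of 8 balances and 67 of 993 pairs had such an unadjusted p. The contact of bin 65 with bins 0 to 26, beyond the deletion, was 0.895 and 0.858 in D700 embryos, against a lowest value of 0.528, a median of 0.713 and a highest of 0.771 in unedited libraries (log2 change 0.29, limma adjusted p = 0.169). Both D700 libraries lay above all 5 unedited libraries. Bins 0 to 26 lie nearer to bin 65 in the edited chromosome than on the undeleted map. Whether this shorter distance bears on the difference was not tested. The pair of bins 59 and 66 had 1.55 and 1.66 in D700 embryos, against 0.570, 0.785 and 0.939 as the lowest, median and highest unedited values (0.81, limma adjusted p = 0.0986).

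On the remaining bins bin 67 had a balance of 0.107 and 0.104 in D700 embryos, against 0.03 ± 0.10 in unedited libraries (SD, n = 5, limma adjusted p = 0.615). Its left side then reaches only to bin 59, at 168 kb, while its right side reaches 252 kb. The sides are thus not matched in distance, and these values cannot be set beside the full map. There the unedited libraries had balances of -0.51 to -0.35. No unedited whole embryo was among the samples, so tissue and deletion cannot be told apart here. The scaling also matters, since the mean deposited value of a pair is higher in the smaller D700 matrices, and unscaled values called all 15 stripes. The share of all stripes called unscaled is not given here.

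Wild type ESC were set against the 4 limb bud libraries to ask whether the boundary bins differ between cell types. 0 of 21 stripes passed in limma, against 10.3% over the map, with 2 at an unadjusted p under 0.05. 0 of 3 balances passed, against 13.2%, with 0 at an unadjusted p under 0.05. Of the pairs 0 of 222 passed, against 0.0701%, with 7 at an unadjusted p under 0.05. Over the map 118 of 573 stripes, 16 of 53 balances and 315 of 2853 pairs had such an unadjusted p. The right side of bin 66 at 42 to 105 kb was closest, with 5.44 and 4.91 in wild type ESC, against 7.27 and 9.79 in anterior and 6.25 and 16.0 in posterior limb buds (-0.80 ± 0.30 SE, limma adjusted p = 0.072, and 0.0617 to 0.644 over the library and eBayes alternatives). All 4 limb bud libraries lay above both ESC libraries.

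That difference was carried by the pair of bins 66 and 70, with a log2 change of -1.59 (limma adjusted p = 0.289), and without it the stripe changed by 0.11 (limma adjusted p = 0.811). The balance of bin 66 differed by 0.79 (limma adjusted p = 0.191), and by 0.23 without this pair (limma adjusted p = 0.574). The pair with the smallest p was bins 66 and 78, with 1.39 and 1.33 in wild type ESC, against 2.57, 2.82, 2.67 and 1.96 in limb buds (-0.75, limma adjusted p = 0.289). Stage, tissue and strain differ together between these groups and cannot be told apart.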

How the data were processed

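The assay was 5C over 1 region of chromosome 5, in the mm9 build per the submitters' processing notes. The deposited 21 kb matrices hold a signal, a contact value per pair of bins. A second deposited set, for ESC only, gives the observed over expected ratio. The deposited limb bud fragment matrices hold counts, whole numbers. Aligner, binning software and normalization: not given in the sources used here. Summed matrices were not used. Each D700 library merges 2 technical replicates.

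Each library was scaled to the mean of its pairs separated by 2 or more bins. Of these pairs, those with values above 0 in 50% or more of the libraries were tested singly. Stripe means, balances and pairs of the whole map were tested with limma 3.58.1 (eBayes with trend) in R 4.3.3. The pseudocount, at the 5th percentile of the positive values, came to 0.266 (DCTCF lines), 0.268 (D35), 0.315 (limb buds), 0.300 (D700) and 0.305 (ESC and limb bud). Counts were assigned to bins by fragment midpoint and tested with edgeR 4.0.16, with DESeq2 1.42.0 as the alternative. Total counts ran from 749738 to 1400833. The limma step was tested on simulated data.

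The bins, lists and tests were chosen with earlier results of these data known. Named features are, for each comparison, up to 3 stripes and 3 pairs with the smallest adjusted p, or the 1 with the smallest p where none passed. The pairs among the 3 bins and with bins 21 and 22 were named in addition. The sequence and its motif shares come from RefSeq tables.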

Additional observations from a re-analysis of the deposited data

How the results depend on the processing

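Limits. With 2 libraries a group the tests see only large differences, bin 65 rests on 1 fragment, and neighbouring values are shared. Over all results, 823 of 915 alternative values kept their side of the threshold or a count within 1.5 times. A change of sign was counted as kept where the feature passed in neither fit. Among features that passed in either fit 1 changed sign, the balance of bin 67 in DCTCF4 with bin 65 left out, at -0.067. The cause was not tested for the changes that follow unless the setting names it. Counts are of features of the 3 bins that passed. The shares of the whole map that passed in these settings are not given, so the counts are not read as particular to the 3 bins. Values as deposited, without scaling, gave 2 stripes for DCTCF1 and, for D700, 15 stripes and 125 pairs. Observed over expected gave 0 stripes and 0 balances for DCTCF1, 0 balances and 0 pairs for DCTCF4, 1 balance for DCTCF5, 1 balance for D700 and 2 stripes for ESC against limb bud. With bin 65 left out DCTCF1 had 0 stripes and 0 balances, and DCTCF4 had 0 stripes, 0 balances and 1 pair. With bins 65 and 66 left out D35 had 3 stripes, 1 balance and 1 pair. For DCTCF4 eBayes without trend gave 2 stripes. Run year as a covariate gave 2 stripes and 0 pairs for DCTCF4 and 1 stripe for DCTCF5. The embryo body alone as reference gave 2 stripes for D700, other separation classes 2 stripes for ESC against limb bud, and DESeq2 with its size factors 1 pair in the fragment counts. Leaving out 1 library at a time gave 0 to 2 stripes and 0 to 1 balances for DCTCF1, 0 to 1 stripes for DCTCF2 and 2 to 4 stripes and 0 to 13 pairs for DCTCF4. It gave 0 to 1 stripes and 0 to 1 balances for DCTCF5, 2 to 5 stripes and 5 to 10 pairs for D35, 0 to 7 pairs for posterior against anterior limb bud, 0 to 1 stripes for ESC against limb bud and 0 to 20 pairs in the fragment counts. The libraries behind the largest shifts were DCTCF4 replicate 1, without which 13 pairs passed, and posterior limb bud replicate 1, without which 20 count pairs passed. Same-numbered libraries correlated over pairs at -0.0949 to 0.0090 between each line and wild type, at -0.114 to 0.103 between lines, and those of the limb buds at -0.029, so the numbers were not read as pairs. The fit with the replicate number as a block (replicate block) gave 15 pairs for D35 and 1 pair for D700, and moved no other count of the 3 bins by over 1.5 times. Leaving the D35 libraries out of the fit and leaving out the pair of bins 66 and 70, both chosen after seeing the data, moved no count by over 1.5 times.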
